A study of Mus musculus with 192 samples.

Results

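L1 (LINE-1) elements are retrotransposons, and their RNA was examined across 96 chambers (wells) of a chip loaded with single mouse embryonic stem (ES) cells. The L1 repeat types were taken by name: every row of the deposited table whose name begins with L1 or Lx, which gave 126 of 1554 repeat types. They fell into 6 young L1Md types, 21 old Lx types, 85 old L1M types and 14 other types, mainly named L1_Mus, L1_Mur and L1VL. Of the 126 types, 123 had at least 1 molecule in some well, and L1P5, L1M2a1 and L1M2b had none. L1 molecules numbered 694087, or 11.3% of all repeat molecules, and the annotated copies of these types spanned 533 Mb of the genome.

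An L1 element is copied through its RNA, which also encodes the RNA-binding protein and the endonuclease and reverse transcriptase that carry out the copying. Young mouse types (L1Md) hold nearly all copies that can still move, and of these the A, T and Gf types are the active ones, while the F types are older relatives that share the name. Lx copies date from an early expansion in rodents, and L1M copies from before the mammalian orders split, so both are mostly truncated and lie within or between genes. ES cells are known to transcribe young L1 more than most somatic cells do, and to restrain it through histone methylation, DNA methylation and RNA decay.

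The cells were R1, a line of mouse ES cells kept on irradiated feeder fibroblasts, freed of feeders by settling and depleted of dead and early-apoptotic cells before freezing. After thawing, cells were captured 1 to a chamber, lysed with spike-in RNAs and amplified by 21 PCR cycles. The same 96 barcodes were sequenced as made and after 9 more cycles, and the table has 1 column per barcode, so each column stands for both library forms. No genotype or treatment was varied. All wells came from 1 culture, which is 1 sample: spreads are between wells, and no test was run.

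Wells held 8774 to 573648 gene molecules and fell into 45 low-RNA wells (at most 35543) and 51 RNA-rich wells (at least 51390), with none between 40000 and 50000. Median gene molecules were 22234 and 98750, while median spike-in molecules were 6098 and 7992, and mitochondrial genes made up a median of 29.1% and 10.4% of gene molecules. All 10 ES cell markers (among them Pou5f1, Sox2 and Nanog) were detected in both ranges, with a median summed level of 53.2 in low-RNA and 92.8 in RNA-rich wells, per 10000 gene molecules. Markers of feeder fibroblasts summed to 3.08 to 17.4 (8 of 10 detected, Col3a1 and Thy1 at 0) in low-RNA wells and to 2.81 to 139 (10 of 10) in RNA-rich wells. The 3 epithelial markers summed to 0.612 to 15.4 and 1.74 to 73.1. The part of feeder cells and of mitochondrial share in the L1 levels was not tested. Wells C03 and H03 stood apart with 36465 and 55740 spike-in molecules and well H12 with 926. H12 counted as low-RNA by its 16330 gene molecules. Its mitochondrial share of 7.58% and ES cell marker level of 145 were nearer the medians of RNA-rich wells. It gave the lowest low-RNA values of the all-L1, young and old levels and of the young to old quotient below. Whether a chamber held an intact cell was not examined.

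L1 made up a larger part of the RNA in low-RNA wells. The level is the number of L1 molecules per 10000 gene molecules, counting neither spike-ins nor repeats as genes, so the total that set the range of a well is also the denominator of its level. In low-RNA wells the level ran from 220.5 to 8502 with a median of 2349.9 and quartiles of 1575 and 3738. In RNA-rich wells it ran from 395 to 2884 with a median of 600.0 and quartiles of 528 and 765. The medians differed 3.92-fold. The ranges overlapped, but 44 of 45 low-RNA wells, all except H12, lay above the median RNA-rich well and 17 lay above the highest one.

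In absolute molecules the ranges were close. A low-RNA well held a median of 5607 L1 molecules (360 to 19775) and an RNA-rich well 6607 (2868 to 34386). Per 100 spike-in molecules the medians were 90.4 and 79.1, a ratio of 1.14, against 3.92 per gene molecule. L1 molecules per spike-in were thus of similar size in both ranges, while gene molecules per spike-in were lower in low-RNA wells. L1 took a median of 18.8% of all repeat molecules in low-RNA wells and 8.01% in RNA-rich wells, a ratio of 2.35.

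**Figure D1:**
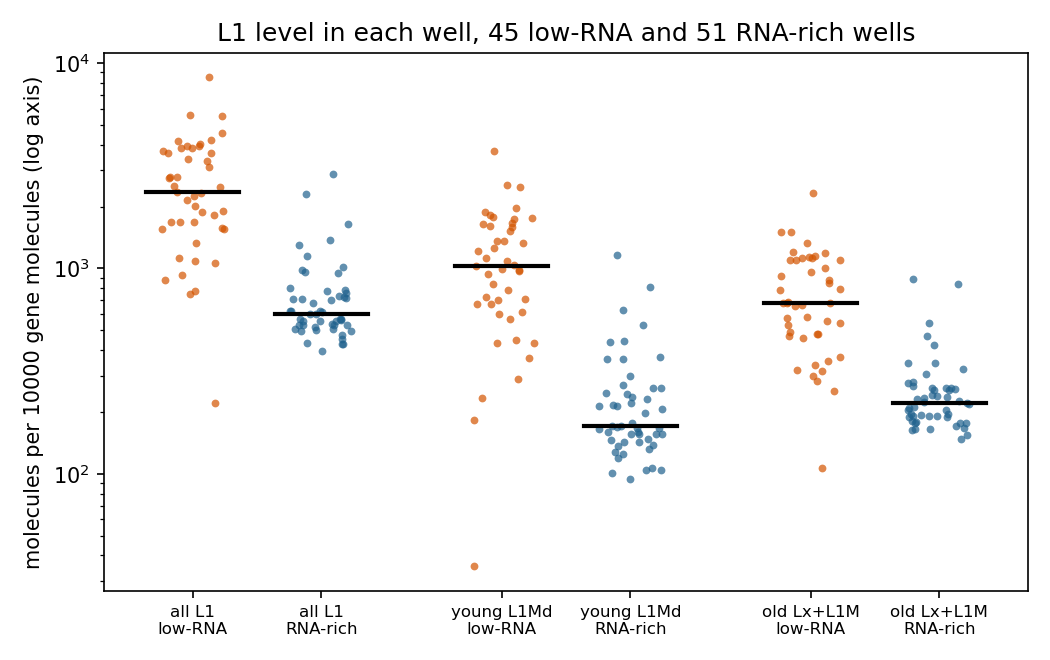
Each point is a well, and the vertical log axis gives molecules per 10000 gene molecules for all L1, young L1Md and old Lx with L1M types; bars are medians, and points are spread sideways only to separate them. Low-RNA wells lie mostly above RNA-rich wells, with medians of 2349.9 and 600.0 for all L1, and a single low-RNA well, H12, lies below all others at 220.5.

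The young L1Md types differed most between the ranges. Their summed level had a median of 1026 (35.5 to 3717) in low-RNA wells and 171 (94.7 to 1159) in RNA-rich wells, a ratio of 6.0. Of the low-RNA wells, 19 lay above the highest RNA-rich well, and 1 RNA-rich well lay above the low-RNA median. Per spike-in molecule the ratio was 1.70, and per repeat molecule 3.34. Summed over wells there were 124725 young molecules in the 45 low-RNA wells (95% exact Poisson interval 124034 to 125419) and 122013 in the 51 RNA-rich wells (121329 to 122700). These intervals cover counting error only, not the spread between wells.

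Old types differed less. Lx and L1M together had a median level of 677 (107 to 2321) in low-RNA and 221 (148 to 891) in RNA-rich wells, a ratio of 3.06. Lx alone had medians of 578 and 177, a ratio of 3.27, and L1M alone 119 and 39.6, a ratio of 3.01. The other types, at 693 and 214, had a ratio of 3.24. Per spike-in molecule the ratio for old types was 0.949, on the opposite side of 1, and per repeat molecule it was 1.99. For comparison, LTR retrotransposons (IAP, MERVL, RLTR, ORR1, MT, ETn and MMERVK names) had a ratio of 1.98 per gene molecule and 0.575 per spike-in. The short B1 to B4 elements, which lie in many gene transcripts, had 0.788 and 0.228 as a sum. Taken singly, by the ratio of mean levels, 10 of 17 B1 to B4 types were at least 2-fold higher in low-RNA wells. Another 2 were at least 2-fold lower, and the median fold was 2.44 per gene molecule and 0.818 per spike-in.

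Within a well, young and old sums can be compared with no gene total. The quotient of young to old molecules had a median of 1.49 (0.331 to 1.97) in low-RNA wells and 0.871 (0.405 to 1.32) in RNA-rich wells. Young molecules outnumbered old ones in 40 of 45 low-RNA wells and in 13 of 51 RNA-rich wells, and 31 low-RNA wells lay above the highest RNA-rich well. Young types made up a median of 42.9% of L1 molecules in low-RNA and 30.2% in RNA-rich wells. The lowest quotients were in wells that stood apart by spike-ins: H12 at 0.331, C03 at 0.405 and H03 at 0.425. Without these 3 wells and E02, the ratio of the median quotients was 1.70, against 1.71 with them.

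**Figure D2:**
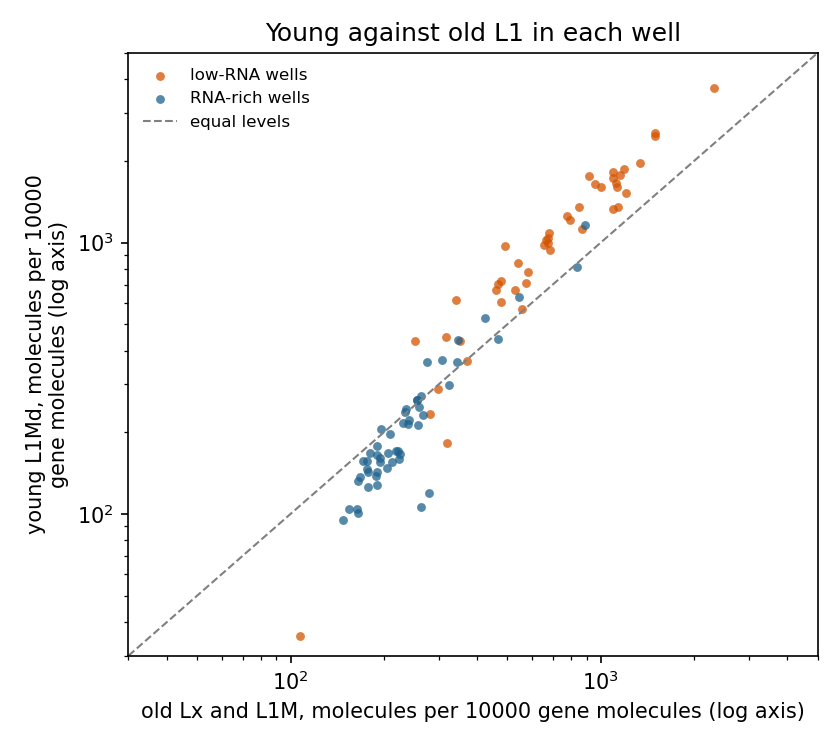
Each point is a well, with the summed level of old Lx and L1M types on the horizontal and of young L1Md types on the vertical log axis, both in molecules per 10000 gene molecules; the dashed line marks equal levels. Of 45 low-RNA wells 40 lie above the line, and of 51 RNA-rich wells 13 do.

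Young and old L1 varied together between wells. Spearman's rho of the young with the old level was 0.958 over 45 low-RNA wells and 0.835 over 51 RNA-rich wells. These wells share a denominator, a culture and a chip, and the values are descriptions. The L1 level also went with the LTR level (rho 0.816 in low-RNA and 0.667 in RNA-rich wells). With B1 to B4 elements rho was 0.916 in low-RNA and 0.229 in RNA-rich wells. Against gene molecules the L1 level had a rho of 0.534 in low-RNA wells and -0.35 in RNA-rich wells, and against the mitochondrial share 0.249 and 0.439. Against the ES cell markers rho was -0.51 and 0.0529. The part of depth and of mitochondrial share was not tested.

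A few wells held much of the range. Among low-RNA wells, E06 had the highest L1 level, 8502 from 19775 L1 molecules, with 23260 gene molecules and 6523 spike-ins. G08 and F01 followed at 5552 and 5537. Among RNA-rich wells the highest levels were 2884 in A08, 2308 in H08 and 1648 in E02, which held the 3rd, 2nd and 4th fewest gene molecules of their range. E02 also had a feeder marker level of 91.2, against 7.97 in A08 and 6.63 in H08. The lowest RNA-rich level was 395, in A03. Without A08 and H08 the ratio between the ranges was 3.92 for all L1 and 6.11 for young types.

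Single types were compared by the ratio of their mean levels over wells, for the 92 of 126 types with at least 100 molecules in all wells together; the other 34 were not compared. Of the 92, 74 were at least 2-fold higher in low-RNA wells, 0 were at least 2-fold lower and 18 lay between, with a median fold of 2.78. By the same rule 222 of 6200 genes (3.58%) were higher and 741 (12%) lower, with a median of 0.755. Of the repeat types that are not L1, 303 of 523 (57.9%) were higher and 35 (6.69%) lower, with a median of 2.27. So most repeat types shared the direction of the L1 types. Per spike-in molecule 1 of the 92 L1 types was at least 2-fold higher and 5 were at least 2-fold lower. Of 6200 genes, 4 (0.0645%) were then higher and 5687 (91.7%) lower. Of 523 other repeat types, 7 were higher and 166 lower. The median L1 type stood at 0.929 and the median gene at 0.246. Relative to the median gene the median L1 type was 3.69-fold higher in low-RNA wells per gene molecule and 3.77-fold higher per spike-in.

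By name group, 6 of 6 young types, 20 of 21 Lx types, 38 of 53 L1M types and 10 of 12 other types were at least 2-fold higher in low-RNA wells. Median folds were 4.65, 3.77, 2.44 and 3.51 per gene molecule, and 1.50, 1.25, 0.812 and 1.14 per spike-in molecule, where the L1M median was below 1. By summed levels instead, the ratio of medians per spike-in molecule was below 1 for Lx (0.928), L1M (0.870) and the other types (0.924), and 1.70 for the young types. All 6 young types lay between 4.27 and 5.39, while Lx types ran from 0.958 to 4.59, L1M types from 1.29 to 6.70 and the others from 0.756 to 4.35. The folds of the young types therefore overlapped the upper end of each older group. Across the 92 types the fold went with the genomic length of the type (Spearman's rho 0.503) and equally with its total molecules (0.511). With molecules per Mb the rho was lower (0.257). Within Lx the rho with genomic length was -0.34 (21 types) and within L1M 0.234 (53 types).

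**Figure D3:**
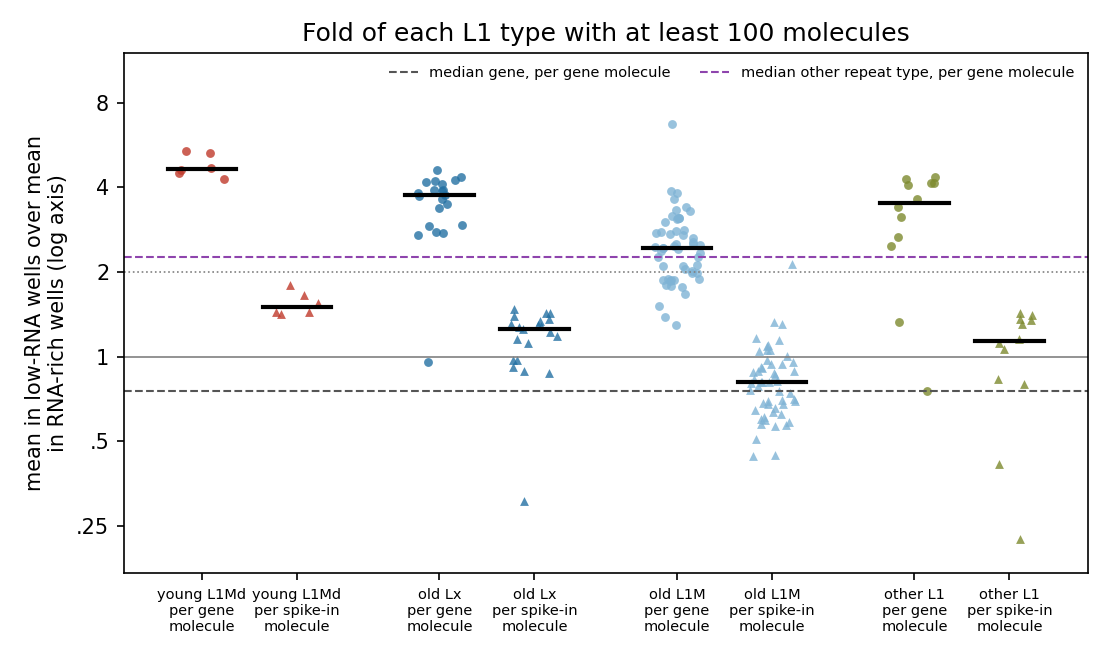
Each point is an L1 type with at least 100 molecules, and the vertical log axis gives its mean in low-RNA wells over its mean in RNA-rich wells, per gene molecule (circles) and per spike-in molecule (triangles); black bars are group medians, dashed lines the medians of genes (0.755) and of other repeat types (2.27) per gene molecule, the dotted line 2 and the grey line 1. Young types sit at 4.27 to 5.39 per gene molecule and at 1.41 to 1.80 per spike-in molecule.

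Among the young types, L1Md_F2 was the most abundant, with 111840 molecules. Its level had a median of 468 (14.7 to 1729) in low-RNA and 80.5 (42.5 to 525) in RNA-rich wells, and its mean differed 4.69-fold. L1Md_T, one of the currently active types, followed with 255 (11.02 to 721) and 43.99 (20.8 to 258), a 4.49-fold difference. L1Md_F2 and L1Md_T alone gave 24.4% of all L1 molecules. L1Md_A, an active type driven by a promoter of repeated monomers, had 184 (3.67 to 805) and 27.7 (9.71 to 227). Its fold of 5.39 was the largest of the young types. L1Md_F3 had 97.9 (6.12 to 411) and 24.4 (11.9 to 129), with the smallest young fold, 4.27. In these 4 types 18 to 22 low-RNA wells lay above the highest RNA-rich well.

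The rare young types separated the ranges more than the abundant young types did. L1Md_F had a median level of 16.8 (0 to 34.4) in low-RNA and 2.53 (0.719 to 13.9) in RNA-rich wells, so the median low-RNA well lay above the highest RNA-rich well. The same held for L1Md_Gf, the third active type, at 9.11 (0 to 23.5) and 1.46 (0.438 to 6.44). Their folds were 5.28 and 4.597. In L1Md_F 32 and in L1Md_Gf 31 of 45 low-RNA wells exceeded every RNA-rich well. This was not particular to young types. The median low-RNA well also lay above the highest RNA-rich well in 2 of 21 Lx, 1 of 53 L1M and 1 of 12 other types. These were Lx5b (31 low-RNA wells above every RNA-rich well), Lx4B (24), L1MCc (24) and L1_Mm (28). Between wells the 4 abundant young types moved closely together, with pairwise rho of 0.882 to 0.990 in low-RNA and 0.730 to 0.939 in RNA-rich wells. Over all 6 types, pairs ran down to 0.235 and 0.312. L1Md_F and L1Md_Gf have few molecules per well, which limits their rho.

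The Lx type itself was the main old type by level in low-RNA wells. Its level had a median of 97.1 (11.6 to 396) in low-RNA and 24.5 (10.7 to 132) in RNA-rich wells, a 3.90-fold difference of means. Lx2 had 59.4 (5.51 to 218) and 14.4 (8.62 to 88.6), and Lx3_Mus 45.1 (1.22 to 158) and 8.14 (2.92 to 91.7), with folds of 3.62 and 4.19. In Lx 16 low-RNA wells, in Lx2 12 and in Lx3_Mus 2 lay above the highest RNA-rich well.

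Lx3B was the exception among Lx types. Its level was nearly the same in both ranges, with a median of 38.6 (18.2 to 95.4) in low-RNA and 42.8 (28.5 to 68.6) in RNA-rich wells and a fold of 0.958. Per spike-in molecule its fold was 0.308, close to the 0.246 of the median gene. It had 8484 molecules per Mb, the highest density of all L1 types. Its coefficient of variation (CV, the SD over the mean) between RNA-rich wells was 17.6%, the lowest among Lx types, whose median was 73.2%. In RNA-rich wells its level had a rho of 0.0450 with the young level, against 0.775 in low-RNA wells.

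The genes most like Lx3B in RNA-rich wells, looked for after its values were seen, were led by genes of the ribosome. Of 3148 genes that averaged 5 or more molecules, Rps23 (chr13:90922958-90924950, plus strand, GENCODE M21 on GRCm38) had the highest rho, 0.723, followed by Rps7 (0.658) and Rpl4 (0.655). Over 46 ribosomal protein genes the median rho with Lx3B was 0.162, against -0.0069 over all 3148 genes, and with the young level -0.075. Only 55.5% of Rps23 molecules came from uniquely matched reads, against 99.1% for Rps7. Between the ranges, the folds of Rps23, Rps7 and Rpl4 were 0.483, 0.496 and 0.668, against 0.958 for Lx3B. The levels share the wells and the denominator.

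L1M types were rare, and their folds were not ordered by age. L1M2 had a median level of 9.37 (0.612 to 27.8) in low-RNA and 3.05 (1.36 to 17.4) in RNA-rich wells, a 3.01-fold difference of means. L1MEg had 9.12 (0.612 to 16.4) and 2.85 (0.709 to 11.2), L1M4 had 7.41 (0.612 to 20.9) and 2.53 (0.723 to 18.9), and L1M5 had 6.45 (1.01 to 21.6) and 2.52 (0.872 to 9.85). Their folds were 3.10, 2.44 and 2.42. Per spike-in molecule the folds were 1.00 for L1M2, 0.957 for L1MEg, 0.812 for L1M4 and 0.813 for L1M5, so the direction was not kept in the last 3. The ranges of all 4 overlapped. The names run from L1MA, the youngest, to L1ME, the oldest. Median folds were 2.51 in L1MA (8 types), 2.05 in L1MB (7), 2.48 in L1MC (11), 2.09 in L1MD (5) and 2.38 in L1ME (15), and 2.74 in the 7 types named without such a letter. This division by letter was chosen after the data were seen.

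The largest fold of any L1 type was in L1MCc, at 6.70, and rests on 172 molecules: 96 in low-RNA and 76 in RNA-rich wells. Its ratio of pooled levels was 7.29, with a 95% counting interval of 5.34 to 9.99. The smallest L1M fold, 1.29 in L1MEi, rests on 151 molecules, with a pooled ratio of 1.62 (1.06 to 2.39). L1MEg, at 3188 molecules per Mb, was the densest L1M type. The gene most like it in RNA-rich wells, also looked for after its values were seen, was Lars2, the mitochondrial leucyl-tRNA synthetase (rho 0.585).

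The other types held both types with folds near those of L1Md and types near 1. L1_Mus1 had a median level of 217 (11.02 to 896) in low-RNA and 42.8 (21.6 to 284) in RNA-rich wells, and L1_Mus3 had 158 (10.4 to 642) and 36.5 (18.5 to 182), with folds of 4.29 and 4.15. L1_Mus2, at 103 (30.4 to 350.0) and 44.7 (22.04 to 124), and L1_Mur3, at 53.3 (3.06 to 102) and 18.0 (11.1 to 58.9), had folds of 2.48 and 2.67, which per spike-in molecule were below 1, at 0.797 and 0.832. Between 16 and 20 low-RNA wells lay above the highest RNA-rich well in these 4 types.

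L1_Mur1 was the L1 type with the lowest fold, 0.756, close to the median gene. Its level had a median of 19.9 (2.45 to 38.2) in low-RNA and 26.7 (11.8 to 42.1) in RNA-rich wells, and no low-RNA well exceeded the highest RNA-rich one. L1_Mur2 had 35.5 (12.3 to 101) and 28.1 (18.0 to 46.3), a 1.33-fold difference. Per spike-in molecule their folds were 0.224 and 0.415. Over all wells L1_Mur1 had 3773 and L1_Mur2 1785 molecules per Mb. L1_Mus1, with a fold of 4.29, was denser than L1_Mur2, at 2499. Over the 12 other types the fold had a rho of only -0.23 with density.

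Levels can be compared between groups per length of annotated sequence. An RNA-rich well held 13.4 young, 14.3 Lx, 8.99 L1M and 20.0 other L1 molecules per Mb. A low-RNA well held 15.5, 9.68, 5.06 and 13.8. So young types had the highest density of the 4 groups in low-RNA wells, and Lx and the other types were above them in RNA-rich wells. For Lx this rests on Lx3B: without it, Lx had 11.5 molecules per Mb in an RNA-rich well, below the young types, and 9.29 in a low-RNA well. Over all wells together the density was 1382 per Mb for young, 1162 for Lx, 687 for L1M and 1638 for the other types, against 804 for LTR types and 20326 for B1 to B4 elements. Genomic length counts all annotated copies, whole or truncated, and both strands, so RNA of L1 itself, antisense RNA, copies inside other transcripts and DNA cannot be told apart.

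**Figure D4:**
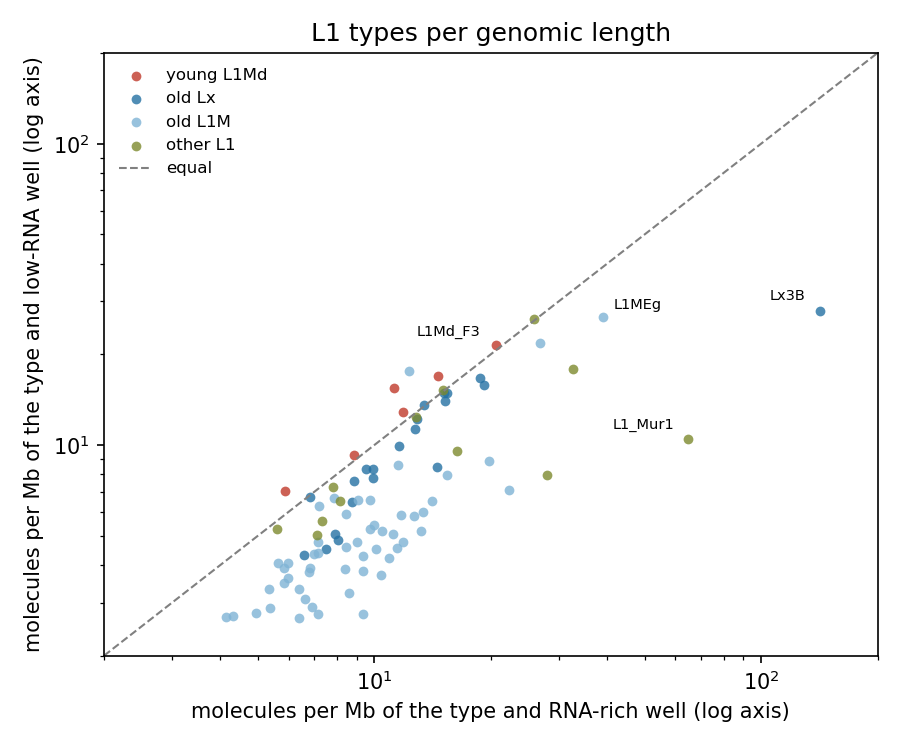
Each point is an L1 type with at least 100 molecules, with molecules per Mb of the type and well in RNA-rich wells on the horizontal and in low-RNA wells on the vertical log axis; the dashed line marks equal density. The 6 young types lie above the line, 52 of 53 L1M and 20 of 21 Lx types below it, and Lx3B and L1_Mur1 lie farthest to the right.

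The number of L1 types seen in a well depends on its depth. Unthinned, a median of 86 types (51 to 104) had a molecule in a low-RNA well and 93 (82 to 118) in an RNA-rich well. After each well was thinned to 8000 gene molecules, which left out 0 wells, the medians were 72 (39 to 88) and 57 (46 to 88). Of L1M types alone, 34 and 21 were seen after thinning, and 47 and 54 before. Thinning matched gene molecules only, and the L1 level still differed 3.94-fold, so L1 depth was not equal.

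The spread of each L1 type between the 51 RNA-rich wells was set against a fit to spike-in RNA of the same abundance. The fit used the spike-ins of all 96 wells, C03, H03 and H12 included, divided by the spike-in total. The squared CV of each type was divided by that fitted to 62 spike-ins, and a type counted as above noise where its mean was at least 1 molecule and this ratio at least 2, also without its highest well. Of 97 types with such a mean, 42 were above noise, against 491 of 7768 genes (6.32%) and 193 of 591 other repeat types (32.7%). They were 6 of 6 young, 20 of 21 Lx, 5 of 58 L1M and 11 of 12 other types. The exceptions in Lx and the other types were Lx3B, at a ratio of 1.89, and L1_Mur2, at 1.69. Without wells A08 and H08, 29 of 96 types and 6.20% of genes were above noise. The median CV was 92.7% over the 53 compared L1M types and 77.01% over the 6 young types. L1M types have few molecules per well, where the spike-in fit allows a larger CV, so a spread of this size was not detectable in most of them.

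The largest ratios were in L1Md_A, at 53.2, and L1Md_F2, at 52.1, with CVs of 95.7% and 80.2%. Without the highest well they were 29.9 and 33.5. L1_Mus1 followed at 42.1, L1Md_T at 33.9 and L1Md_F3 at 32.5. Lx3_Mus had a ratio of 36.3, or 10.0 without its highest well, so 1 well gave much of its spread. L1Md_F and L1Md_Gf, at 38.5 and 23.5 molecules per well, had ratios of 5.88 and 3.03.

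**Figure D5:**
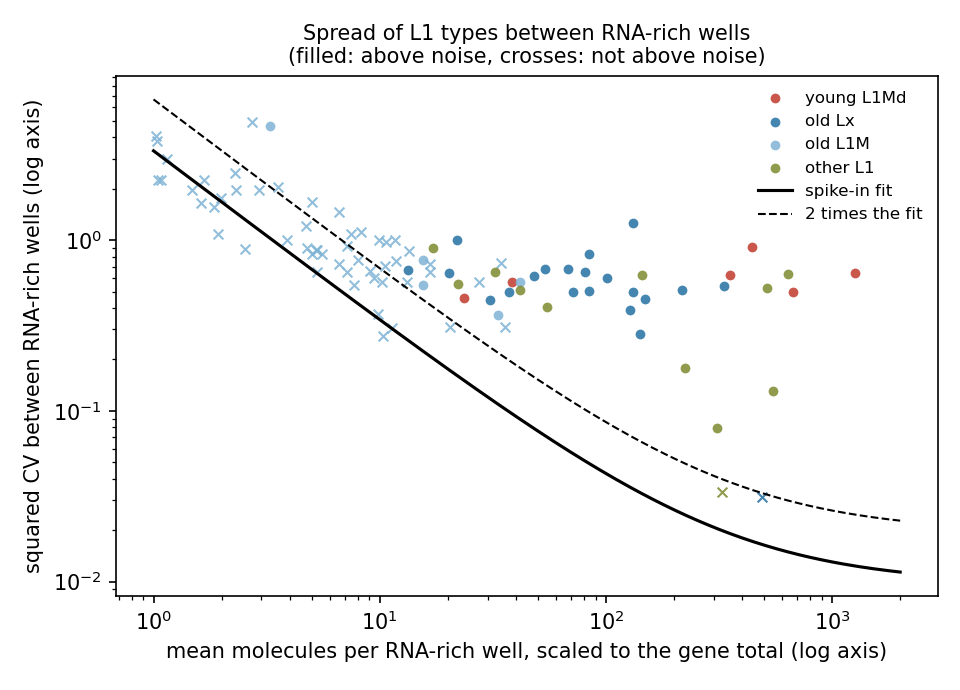
Each symbol is an L1 type with a mean of at least 1 molecule in RNA-rich wells; the horizontal log axis is this mean, scaled to the gene total, and the vertical log axis the squared CV between the 51 wells. The solid curve is the fit to spike-ins and the dashed curve 2 times it; filled symbols are above noise also without the highest well. The 4 abundant young types lie far above the curves, and L1Md_F and L1Md_Gf less far, at 5.88 and 3.03 times the fit. Lx3B and L1_Mur2 lie between the curves, and most L1M types near them.

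The regulators of L1 were taken from lists, and over all 6200 compared genes 3.58% were at least 2-fold higher, 12% were at least 2-fold lower and 5237 lay between, with a median fold of 0.755. Of 18 genes that silence L1 on chromatin, 17 were in the table and 15 had at least 100 molecules, of which 2 were at least 2-fold higher and 0 lower in low-RNA wells, with a median fold of 1.04. The highest mean levels over all wells were those of Atrx, a chromatin remodeller that works with the histone chaperone Daxx, and of Cbx3, a heterochromatin protein. Atrx had a mean level of 7.27 in low-RNA and 3.02 in RNA-rich wells, a fold of 2.404 per gene molecule but 0.787 per spike-in molecule. Cbx3 had 3.07 and 4.53, with 60.4% of its molecules from uniquely matched reads. Morc2a, an ATPase of the silencing complex that targets L1, had a fold of 2.22 from 45 and 112 molecules, and 0.714 per spike-in molecule. Trim28 (chr7:12999114-13031035), the corepressor of KRAB zinc finger proteins, had 2.47 and 2.56.

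Of 8 genes of DNA methylation 1 was at least 2-fold higher and 0 lower, beside 3.58% and 12% of all genes, with a median fold of 1.12. It was Tet2, an enzyme that oxidises methylcytosine, at 2.49 from 44 and 103 molecules, and 0.732 per spike-in molecule. Hells, a remodeller needed for methylation of repeats, had the highest mean level over all wells, with 7.25 in low-RNA and 6.20 in RNA-rich wells. Tet1 came second by this mean, with 3.48 and 1.99, while the methyltransferase Dnmt3b was above it in RNA-rich wells, with 2.34 and 2.32. Of 10 compared genes that restrict L1 RNA or cDNA, 0 were higher and 2 lower, with a median of 0.709, against 3.58% higher, 12% lower and a median of 0.755 over all genes. These were Samhd1, which degrades dNTPs, at 0.317 from 13 and 238 molecules, and Rnaseh2c, a subunit of RNase H2, at 0.471 from 24 and 311 molecules. Rnaseh2a, the catalytic subunit, had the highest mean level over all wells, with 0.873 in low-RNA and 1.45 in RNA-rich wells. Dicer1, which cuts double-stranded RNA, came second by this mean, with 0.627 and 0.454, although Rnaseh2c (0.528) and Drosha (0.495) were above it in RNA-rich wells.

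Genes derived from L1 or whose proteins bind its RNA or promoter lay within 2-fold in all 7 cases, as did 5237 of the 6200 genes, with a median of 0.968. L1td1 (chr4:98726734-98738480, plus strand), which arose from the RNA-binding protein of L1 and is expressed in ES cells, had mean levels of 3.43 in low-RNA and 3.28 in RNA-rich wells, a fold of 1.04. Ncl, the nucleolar protein nucleolin, had the highest mean level, with 19.5 and 23.7, followed by Hnrnpu with 4.91 and 5.07. Over RNA-rich wells the rho with the young L1 level was -0.068 for L1td1 and 0.0447 for Ncl. Among the genes of all lists it ran from -0.373 in Hells to 0.315 in Tet1.

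Over RNA-rich wells, 2 of 3148 genes had a rho of at least 0.5 with the summed young level. These were Snora75, a small nucleolar RNA, at 0.501, and Ncor1, a nuclear receptor corepressor, also at 0.501. Their mean levels were 8.99 in low-RNA and 1.19 in RNA-rich wells for Snora75, and 4.61 and 1.47 for Ncor1. No single gene went with the young level as closely as the summed old L1 types did, at 0.835. That sum covers 106 types, while a gene was admitted from a mean of 5 molecules, and few molecules per well limit rho.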

How the data were processed

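Values were molecule counts per feature and well, as deposited by the authors. Per the file headers, copies of a repeat type were summed on both strands, and reads with several matches were counted at their most 5′ exonic match. Bowtie and mm10 (GRCm38) are named in the submitters' processing notes. All 25914 rows summed to their deposited totals. Each type's genomic length, from the deposited length column, gave molecules per Mb.

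Class ratios are ratios of medians over wells, and folds of single features are ratios of mean levels over wells. Features with at least 100 molecules were compared. Technical noise was fitted to 62 spike-ins over all 96 wells as a squared CV of 3.33 divided by the mean plus 0.00970 (gamma model with identity link). Spike-in counts were divided by the spike-in total and L1 counts, in RNA-rich wells only, by the gene total. The fold and noise rules were tested on simulated data. The named types were all L1Md types, the 4 most abundant of each other name group, the 4 largest and smallest folds and the 6 largest noise ratios; of each gene list, the 2 most abundant and up to 3 genes past 2-fold in each direction; and up to 5 genes with a rho of at least 0.5 with the young level. L1MEg, Trim28, L1td1 and the genes most like single types were named in addition. The members, lists and ranges were chosen with earlier results of these data known. Gene symbols and coordinates are those of GENCODE M21. With 1 culture, no p-value was computed. L1 sequences were not used here. Computation used statsmodels 0.14.6, scipy 1.17.1, pandas 2.3.3, numpy 2.4.6 and matplotlib 3.10.9 under Python 3.11.15.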

Additional observations from a re-analysis of the deposited data

How the results depend on the processing

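Per spike-in instead of gene molecule, the ratio of low-RNA to RNA-rich wells was 1.14 for all L1 and 1.70 for young types. For old types it was 0.949, a reversed direction. By this measure 1 type was at least 2-fold higher and 5 at least 2-fold lower, beside 0.0645% and 91.7% of genes. The other 48 values kept their direction, with ratios within 1 SD between wells, which is wide, and counts within 1.5 times. Per repeat molecule the ratios were lower, at 2.35 for all L1, 3.34 for young and 1.99 for old types. Types above noise numbered 34 with the spike-in total, 33 at a ratio of at least 3 and 29 without A08 and H08, against 42. The share of genes above noise was then 11.2%, 2.27% and 6.20%, against 6.32%. With a mean of at least 5 molecules, 41 of 75 L1 types and 13.2% of genes were above noise. The alternatives tried were means over wells, pooled molecules, other limits of the ranges (30000 and 70000), thinning, gene totals without mitochondrial genes, repeat totals, minimums of 30 and 300 molecules, and wells C03, H03, H12 and E02 or, chosen after the data were seen, A08 and H08 left out. A further one counted L1_Mus and L1_Mm types as young, and the ratio of the median quotients was then 1.55, against 1.71. By means over wells the ratio for young types was 4.71, against 6.0 by medians. Without mitochondrial genes in the total the ratios were higher, at 5.13 for all L1 and 8.17 for young types. No paired analysis was possible because each column holds both library forms and each well lies in 1 range, and no test was run. With 1 culture, the spread between cultures is unknown. The counts do not separate the strands, single copies or library forms.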

Other observations

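Repeats outside L1, chosen after the data were seen, had widely different ratios between low-RNA and RNA-rich wells. Of the simple repeats, (CA)n had a median level of 98.8 (0.612 to 217) in low-RNA and 15.6 (5.57 to 52.6) in RNA-rich wells, a ratio of 6.35, and 41 low-RNA wells lay above the highest RNA-rich well. The (A)n repeat had medians of 641 and 114, a ratio of 5.62. The major satellite GSAT_MM had 38.3 (0 to 376) and 4.97 (1.60 to 98.7), a ratio of 7.71. Each of these ratios was close to or above the 6.0 of the young L1Md types. The retrovirus-like IAPEz-int had 5.11 and 1.69, a ratio of 3.02, and sequences of the large ribosomal RNA 2092 and 694, a ratio of 3.01. The 4.5SRNA type, a small RNA transcribed by RNA polymerase III, went the other way, with medians of 147 and 679 and a ratio of 0.217. Per spike-in molecule these ratios were 1.80 for (CA)n, 1.68 for (A)n, 2.35 for GSAT_MM, 0.857 for IAPEz-int, 0.861 for large ribosomal RNA and 0.0665 for 4.5SRNA.

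Olfactory receptor genes, which ES cells are not known to use, gave 61 molecules over all wells from 1125 genes. That is 48.6 molecules per Mb of transcript, against 1303 per Mb of genomic sequence for L1. Of these molecules 32 (95% exact Poisson interval 21.9 to 45.2) were in low-RNA and 29 (19.4 to 41.6) in RNA-rich wells. Pooled over wells they came to 0.317 and 0.0497 per 10000 gene molecules. The 382 vomeronasal receptor genes gave 7 (2.81 to 14.4) and 19 (11.4 to 29.7) molecules. Pooled over wells, that is 0.0693 and 0.0326 per 10000 gene molecules. The low-RNA value rests on 7 molecules, too few to tell a direction.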
